A study of Mus musculus with 20 samples.

Results

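Kidney RNA of mice that carried the Sweet Pee (SP) mutation and received an inhibitor of methionine adenosyltransferase 2A (MAT2Ai) was compared with kidney RNA of wild type (WT) mice that received placebo. The members were all libraries that the labels place in these 2 groups, 5 of SP MAT2Ai and 5 of WT placebo, which made 10 of the 20 libraries of the series. SP is a missense mutation of *Slc5a2*, the gene of the glucose cotransporter SGLT2, and the SP mice were homozygous for it. The mice of both groups were C3H/HeJ males that began a high fat diet (HFD, 60% of calories from fat) at 10 weeks of age. After 8 weeks of HFD they received either placebo (DMSO) or MAT2Ai at 10 mg/kg body weight, by intraperitoneal injection 3 times per week for 8 weeks. The treatment followed the diet in both groups, and no library of the series came from mice on another diet. Genotype and treatment thus differ together between the 2 groups, so the effect of the mutation and that of the inhibitor cannot be told apart in this comparison alone. The labels give the tissue as kidney, and the treatment text mentions nuclei from renal cortex. The methods of the study instead describe bulk sequencing of total RNA from kidney cortex. The libraries were taken here as tissue RNA, and mitochondrial transcripts made up 14.1% to 18.5% of the counts in the 10 libraries. The labels do not state that each library came from a separate mouse, so p values measure the spread between libraries.

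SGLT2 sits in the brush border of the early proximal tubule, where it takes up most of the glucose that the glomerulus filters, and mice without its function lose glucose in the urine. MAT2A makes S-adenosylmethionine (SAM), the methyl donor of most cellular methylation reactions, from methionine and ATP. The study asked what SAM synthesis does in the HFD kidney of mice without SGLT2 function, and this comparison sets the mutant with the inhibitor against the untreated control.

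The libraries held 53296824 to 79339949 counts assigned to genes, with 53296824 to 64621039 in WT placebo and 63058465 to 79339949 in SP MAT2Ai. The higher depth of SP MAT2Ai gave p = 0.0159 in a two-sided exact permutation test of the difference of means and 0.0635 after adjustment over 4 measures, where 0.00794 is the smallest p that 5 against 5 allows. Mitochondrial transcripts made up 15.4% to 17.97% of counts in WT placebo and 14.1% to 18.5% in SP MAT2Ai. The share of mitochondrial counts, the number of genes with a count and the share of the 10 most counted genes gave adjusted p of 0.984 each by the same test. The 27 markers of the early proximal tubule (segments S1 and S2) summed to between 22908 and 27166 CPM (counts scaled to library size, per 1000000) in the 10 libraries and those of the late segment S3 to between 19559 and 25640 CPM, against 190.5 to 302 CPM for 14 podocyte markers. None of the markers of tubule segments, podocytes or endothelium was at 0 in either group. On the first principal component, which held 34.3% of the variance of the 10 libraries, WT placebo lay between -24.1 and -6.58 and SP MAT2Ai between 1.22 and 24.9, with SP MAT2Ai replicates 1 and 4 nearest to WT placebo.

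*Slc5a2* (ENSMUSG00000030781, chr7:128265657-128272430 on the plus strand of GRCm38) separated the groups. Its level was 372, 519, 381, 407 and 448 CPM in the 5 WT placebo libraries and 72.5, 46.8, 43.3, 86.4 and 59.8 CPM in the 5 SP MAT2Ai libraries. Every SP MAT2Ai library lay below every WT placebo library, with a log2 fold change of -2.78 ± 0.18 (SE throughout) and an adjusted p of 1.4e-05 by the edgeR quasi-likelihood test with Benjamini-Hochberg adjustment, the test behind every adjusted p here unless another is named. The change ranged from -2.93 to -2.68 when 1 library at a time was left out, and all 10 of these fits called it. Since the mutation is missense, the lower mRNA is a measurement beside the genotype and not the mutation itself, and it was low in every library labelled SP and high in every library labelled WT among the 10. Of the groups set beside them, WT MAT2Ai had 415, 226, 389, 326 and 385 CPM and SP placebo 244, 282, 69.9, 40.2 and 56.7 CPM. SP placebo replicates 1 and 2, at 244 and 282 CPM, thus lay within the range of WT MAT2Ai. The step of *Pycard* from WT placebo to SP placebo is therefore also given without them. The other steps, ranges and sums of SP placebo include them.

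Of 15471 genes that passed the filter on low counts, 169 (1.09%) were called at an adjusted p under 0.05, 70 of them higher in SP MAT2Ai (0.452% of the genes tested) and 99 lower (0.64%). The median log2 fold change over all tested genes was 0.0017, and 50.4% of genes had a positive value. At an unadjusted p under 0.05 there were 2736 genes, against 774 expected if no gene differed. The levels of the 2 groups did not overlap for 619 genes (4%), 304 higher (1.96%) and 315 lower (2.04%). The count of called genes moved with the fit. A fit over all 20 libraries, which takes 1 estimate of the spread from all 4 groups, called 19 genes (11 higher and 8 lower; 0.118%), each of which was among the 169. DESeq2 on the 10 libraries called 891. Single libraries also moved the count, from 22 without WT placebo replicate 3 and 23 without WT placebo replicate 4 to 363 without SP MAT2Ai replicate 1 and 397 without SP MAT2Ai replicate 4. It was 43 without WT placebo replicate 2, 44 without SP MAT2Ai replicate 2, 44 without SP MAT2Ai replicate 5, 55 without SP MAT2Ai replicate 3, 103 without WT placebo replicate 5 and 232 without WT placebo replicate 1. None of the 169 genes changed direction in these 10 fits, 18 were called in all of them and 64 in at least 5. The 18 included *Slc5a2*, *Eda2r*, *Psrc1*, *Sulf2*, *Exoc4*, *Dglucy*, *Casp8*, *Klhl6*, *Hspb8*, *Tgm1*, *Ano10*, *Apob*, *Adcy1*, *Cd38* and *Pigz*.

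**Figure D1:**
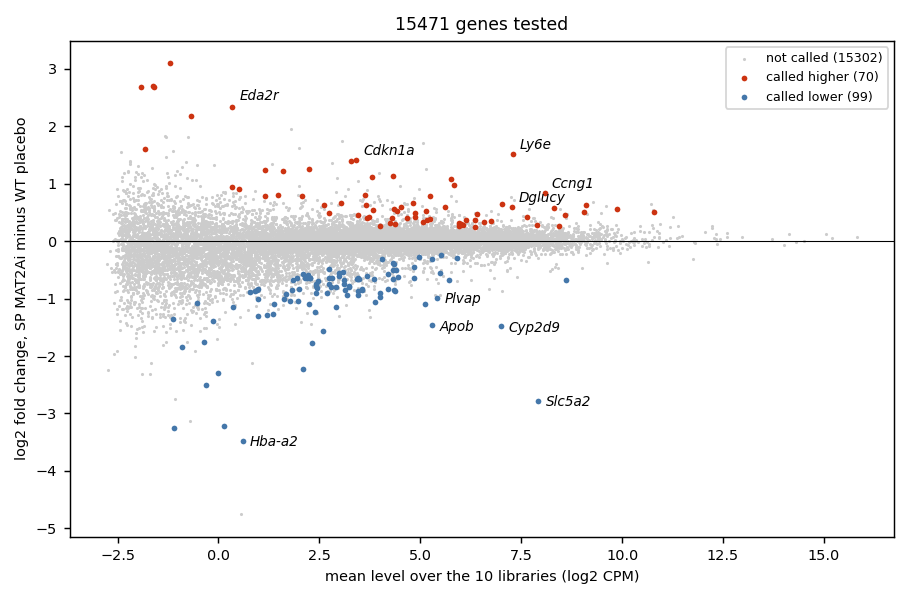
Log2 fold change of SP MAT2Ai against WT placebo (vertical axis) by the mean level over the 10 libraries in log2 CPM (horizontal axis), 1 point per gene tested, with 70 genes called higher in red and 99 called lower in blue. *Slc5a2* stands apart among well expressed genes at -2.78, and most called genes lie within 1.5 of 0 on the log2 scale.

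Targets of the transcription factor p53 were the list with the most genes called higher. p53 is activated by DNA damage and other stress and raises genes that stop the cell cycle, repair DNA and set its own level through *Mdm2*. Of 37 targets listed, 36 were tested, 8 were called higher and 1 lower, and 30 of 36 had a positive log2 fold change with a median of 0.41, beside 0.452% called higher and a median of 0.0017 over all genes. The 8 were *Eda2r*, *Psrc1*, *Ccng1*, *Cdkn1a*, *Mdm2*, *Gdf15*, *Phlda3* and *Mgmt*. *Mgmt* also starts within 10 Mb of *Slc5a2* and is counted again among the genes near it. DESeq2 called 14 members of the list in either direction and the fit over 20 libraries 3. Leaving out 1 library gave 2 to 12 calls, with the fewest without WT placebo replicate 4 and the most without SP MAT2Ai replicate 4.

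The sequences before the starts of these genes were searched for the decamer consensus that p53 response elements are built from, and the 3 genes that hold it are shown here because they are also among those that moved. The window ran from 250 to 31 bases before each start in RefSeq (GRCm38.p6), 220 bases on the strand of the gene. All 8 genes had at least 1 window, 12 in all, and 3 genes held the consensus, which reads alike on both strands. Capitals mark the element in each.
Cdkn1a, chr17:29090729-29090948, plus strand: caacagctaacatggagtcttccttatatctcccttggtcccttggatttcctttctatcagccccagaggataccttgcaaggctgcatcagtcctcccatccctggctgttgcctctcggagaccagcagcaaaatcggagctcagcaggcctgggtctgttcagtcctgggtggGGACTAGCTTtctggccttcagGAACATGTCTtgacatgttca
Ccng1, chr11:40755317-40755536, minus strand: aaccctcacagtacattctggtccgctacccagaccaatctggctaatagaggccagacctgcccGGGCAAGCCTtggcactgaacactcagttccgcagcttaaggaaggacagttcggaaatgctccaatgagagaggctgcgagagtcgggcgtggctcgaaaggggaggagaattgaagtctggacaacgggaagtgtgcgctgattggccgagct
Mdm2, chr10:117710789-117711008, minus strand: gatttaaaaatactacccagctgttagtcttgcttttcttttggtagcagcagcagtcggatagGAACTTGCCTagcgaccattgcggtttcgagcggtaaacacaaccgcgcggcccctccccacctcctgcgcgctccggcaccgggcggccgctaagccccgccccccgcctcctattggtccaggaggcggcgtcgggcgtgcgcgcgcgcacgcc
The first start of *Cdkn1a* had 2 such elements, at 73 to 64 and at 51 to 42 bases before the start. The element of *Ccng1* lay at 185 to 176 and that of *Mdm2* at 186 to 177 bases before the start. Of all 32851 windows in the table, 6.33% held at least 1 element. Such a match is a description of the letters and does not show binding.

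*Cdkn1a* encodes p21, an inhibitor of cyclin-dependent kinases that halts the cell cycle. It stood at 5.34, 5.63, 7.87, 4.66 and 5.53 CPM in WT placebo and at 18.9, 17.1, 22.4, 9.24 and 9.76 CPM in SP MAT2Ai (log2 fold change 1.41 ± 0.24, adjusted p = 0.0213). The groups did not overlap, although SP MAT2Ai replicates 4 and 5, at 9.24 and 9.76 CPM, lay close to the highest WT placebo library. *Ccng1* encodes cyclin G1, a p53 target that feeds back on p53. Its 5 WT placebo values of 202, 185, 186, 195 and 205 CPM lay within a narrow range, and all 5 SP MAT2Ai values of 488, 369, 329, 249 and 301 CPM lay above them (log2 fold change 0.83 ± 0.14, adjusted p = 0.0209). *Mdm2*, the ubiquitin ligase that marks p53 for degradation, moved by less, from 30.5, 32.8, 31.8, 34.6 and 34.9 CPM to 48.7, 45.2, 41.1, 40.5 and 38.9 CPM (log2 fold change 0.38 ± 0.07, adjusted p = 0.0255). The smallest gap between the groups for *Mdm2* was between 34.9 and 38.9 CPM.

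*Eda2r*, a receptor of the tumor necrosis factor family that binds ectodysplasin A2, had the largest rise among genes with a mean of at least 1 CPM. It was at 0.361, 0.417, 0.276, 0.367 and 0.595 CPM in WT placebo and 3.28, 2.53, 1.63, 1.14 and 1.62 CPM in SP MAT2Ai (log2 fold change 2.33 ± 0.31, adjusted p = 0.0144). *Psrc1*, which encodes a spindle protein, was lower expressed, at 0.304, 0.223, 0.243, 0.167 and 0.125 CPM against 0.86, 1.41, 0.764, 1.03 and 0.728 CPM (log2 fold change 2.18 ± 0.29, adjusted p = 0.0144). Both were called in each of the 10 fits that left out 1 library, whereas *Ccng1* and *Cdkn1a* were called in 7, *Mdm2* in 6, *Gdf15* and *Phlda3* in 5 and *Mgmt* in 3. *Gdf15*, a stress cytokine that acts on the brainstem to lower food intake, stood at 4.31, 7.41, 4.74, 5.01 and 5.32 CPM against 13.2, 24, 13.3, 7.68 and 12.2 CPM (log2 fold change 1.39 ± 0.25, adjusted p = 0.0255). *Phlda3*, an inhibitor of Akt signaling, was at 3.08, 3.39, 2.27, 2.62 and 2.47 CPM against 10.7, 8.41, 4.95, 4.63 and 4.37 CPM (log2 fold change 1.25 ± 0.24, adjusted p = 0.0332). SP MAT2Ai replicate 1 had the highest level of *Ccng1*, *Eda2r*, *Phlda3* and *Mdm2* of the 10 libraries. *Mgmt*, which removes alkyl groups from guanine in DNA, rose from 6.04, 8.46, 5.53, 5.94 and 5.54 CPM to 13, 9.75, 8.32, 9.23 and 9.56 CPM, with WT placebo replicate 2 above the lowest SP MAT2Ai library (log2 fold change 0.66 ± 0.14, adjusted p = 0.0439). *Trp53i11* was the member called lower, at 6.16, 6.59, 5.26, 5.44 and 5.53 CPM against 4.45, 3.13, 3.62, 3.9 and 3.43 CPM (log2 fold change -0.65 ± 0.11, adjusted p = 0.0255).

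**Figure D2:**
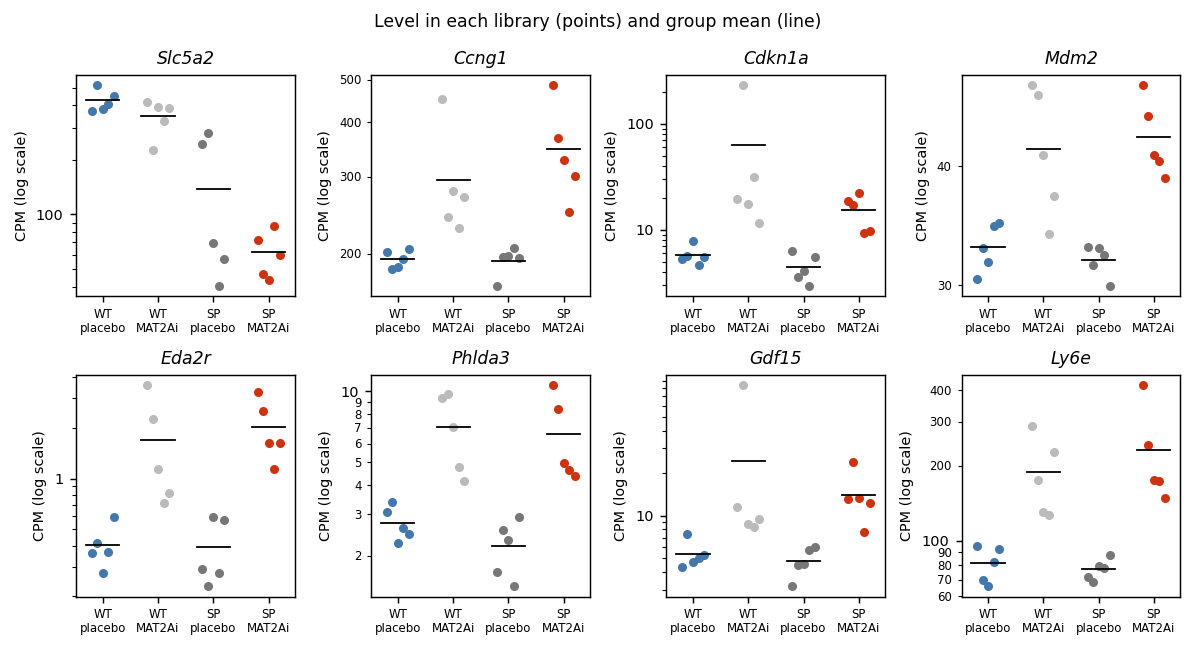
Level in CPM (vertical axis, log scale, a separate range per panel) of *Slc5a2*, 6 p53 targets and *Ly6e* in each of the 20 libraries (points, in replicate order from left to right) by group, with the group mean as a line. *Slc5a2* is low in SP MAT2Ai and in 3 of 5 SP placebo libraries. *Ccng1*, *Cdkn1a*, *Eda2r* and *Ly6e* lie higher in the MAT2Ai libraries than in the placebo libraries of both genotypes. For *Cdkn1a*, *Eda2r* and *Gdf15* the nearest MAT2Ai and placebo libraries lie close together.

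The 2 groups outside the comparison show, by their labels, the levels of these genes with 1 of the 2 factors at a time. *Ccng1* stood at 169, 197, 198, 206 and 196 CPM in SP placebo and at 453, 243, 279, 229 and 270.3 CPM in WT MAT2Ai. In the fit over 20 libraries, its step from WT placebo was -0.01 ± 0.16 (adjusted p = 1) to SP placebo and 0.60 ± 0.16 (adjusted p = 0.155) to WT MAT2Ai. For *Eda2r* the same steps were -0.04 ± 0.45 (adjusted p = 1) and 2.08 ± 0.43 (adjusted p = 0.129), with 0.289, 0.228, 0.592, 0.276 and 0.57 CPM in SP placebo and 3.61, 2.26, 1.13, 0.712 and 0.819 CPM in WT MAT2Ai. *Cdkn1a* was at 6.3, 3.61, 4.05, 2.94 and 5.49 CPM in SP placebo and at 19.5, 234, 17.6, 31.2 and 11.7 CPM in WT MAT2Ai, where replicate 2, at 234 CPM, stood apart. These steps share the WT placebo libraries with the comparison, and none of the 4 steps of *Ccng1* and *Eda2r* from WT placebo to a single-factor group passed the threshold. By the labels, the step from SP placebo to SP MAT2Ai changes the treatment alone, but SP placebo replicates 1 and 2, with high *Slc5a2*, were part of it. This step did not pass the threshold for either gene, at 2.38 ± 0.43 (adjusted p = 0.0691) for *Eda2r* and 0.85 ± 0.16 (adjusted p = 0.112) for *Ccng1*.

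*Ly6e*, which encodes a surface protein anchored in the membrane by a lipid and is known as an interferon-induced gene, had the largest rise among called genes with a mean over 10 CPM. It was at 95.7, 69.6, 65.8, 82.7 and 92.8 CPM in WT placebo and at 420.5, 241, 175, 173 and 148 CPM in SP MAT2Ai (log2 fold change 1.51 ± 0.25, adjusted p = 0.0207), with no overlap. SP placebo libraries had 71.8, 68.3, 79.1, 77.7 and 87.9 CPM and WT MAT2Ai libraries 288, 175, 130.1, 127 and 226 CPM. The step from SP placebo, with replicates 1 and 2 included, to SP MAT2Ai was 1.59 ± 0.25 (adjusted p = 0.0209) in the fit over 20 libraries and passed the threshold. The related *Ly6a* also rose, from 464, 368, 469.8, 444 and 424 CPM to 900.3, 649, 597, 608 and 589 CPM (log2 fold change 0.62 ± 0.11, adjusted p = 0.0267), and *Ly6c1*, which kidney endothelium expresses, fell (log2 fold change -0.61 ± 0.12, adjusted p = 0.0328). These genes belong to a family of similar sequences, and reads that aligned to several places were not counted. Of the 34 interferon response genes tested, *Ly6e* was the one that was called, and 13 were positive and 21 negative with a median of -0.17.

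*Hspb8* and *Klhl6*, given below, also had small p values and rose by over 1 on the log2 scale. The remaining genes with the smallest p values that rose did so by under 1 where their average log2 CPM was at least 0. *Crisp1*, which encodes a cysteine-rich secretory protein, lay below that level and was named after its values were seen. It rose by more, from 0.0816 ± 0.0244 to 0.716 ± 0.338 CPM (SD, n = 5 each; log2 fold change 3.09 ± 0.42, adjusted p = 0.0144 by the edgeR quasi-likelihood test), and was called in all 10 fits that left out 1 library. *Dglucy*, which encodes a mitochondrial D-glutamate cyclase, had the smallest p after *Slc5a2*, at 138, 115, 125, 122 and 112 CPM against 205, 195, 178, 163 and 182 CPM (log2 fold change 0.59 ± 0.07, adjusted p = 0.0117). *Casp8*, the initiator caspase of death receptors, moved from 21.6, 22, 21.5, 22.3 and 22.9 CPM to 31.9, 28, 28.3, 29.4 and 27.4 CPM (log2 fold change 0.40 ± 0.05, adjusted p = 0.0144). Its WT placebo libraries spanned 21.5 to 22.9 CPM. *Exoc4*, a subunit of the exocyst that tethers secretory vesicles, stood at 29.4, 26.6, 30.1, 29.2 and 30.8 CPM against 47.9, 45.1, 40.2, 35.6 and 40.6 CPM (log2 fold change 0.52 ± 0.08, adjusted p = 0.0147). *Sulf2*, an enzyme that removes sulfate groups from heparan sulfate, stood at 19.9, 19.4, 17.3, 18.2 and 16.4 CPM against 27.7, 31, 28.3, 27.6 and 22.8 CPM (log2 fold change 0.59 ± 0.08, adjusted p = 0.0147). Both were also high in WT MAT2Ai, with 31.9 to 44.1 CPM for *Exoc4* and 22.8 to 45.2 CPM for *Sulf2*, and in SP placebo they were at 25.5 to 33.3 and 16.8 to 21.1 CPM. *Ano10* rose from 31.4, 30, 32.3, 31 and 31.8 CPM to 41.1, 42.3, 41.7, 36.5 and 39.4 CPM (log2 fold change 0.36 ± 0.05, adjusted p = 0.0147). Of the 14 podocyte genes tested, 13 had a negative fold change, with a list median of -0.19.

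The rises of *Klhl6*, *Hspb8*, *Pycard*, *B4galnt4*, *Mfsd2a*, *Tgm1* and *Hpcal4* were among the 12 largest. *Hspb8*, a small heat shock protein, stood at 7.2, 8.34, 11.3, 7.76 and 9.75 CPM against 26.3, 16.9, 17, 14.3 and 21.2 CPM (log2 fold change 1.11 ± 0.16, adjusted p = 0.0147). *Klhl6*, a substrate adaptor of a cullin ubiquitin ligase, stood at 12, 13.5, 13.9, 11.1 and 12.4 CPM against 30.4, 24.6, 40.2, 18.2 and 24.1 CPM (log2 fold change 1.13 ± 0.17, adjusted p = 0.0147). SP placebo replicates 3, 4 and 5 had 24, 26 and 15.9 CPM of *Hspb8* and 20.8, 31 and 17.9 CPM of *Klhl6*, above all WT placebo libraries, while SP placebo replicates 1 and 2 lay within the WT placebo range for both. *Tgm1*, a transglutaminase that cross-links proteins, was at 44.2, 35.7, 28.6, 44.6 and 39.3 CPM in WT placebo and 64.1, 90.6, 97.4, 59.5 and 65.9 CPM in SP MAT2Ai (log2 fold change 0.97 ± 0.15, adjusted p = 0.0177), against 29.7 to 46.3 CPM in SP placebo. *Mfsd2a*, a transporter of lysophospholipids, rose (log2 fold change 1.08 ± 0.22, adjusted p = 0.0384) with WT placebo replicate 5, at 49.9 CPM, near the lowest SP MAT2Ai library at 52 CPM. *B4galnt4*, a glycosyltransferase, rose (log2 fold change 1.23 ± 0.22, adjusted p = 0.0262), and so did *Hpcal4*, a neuronal calcium sensor (log2 fold change 0.94 ± 0.20, adjusted p = 0.0397), both at under 5 CPM in all 10 libraries. The groups did not overlap for any of these 7 genes.

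*Apob*, which encodes the structural protein of lipoproteins, stood at 61.1, 52, 48.7, 87.4 and 38.1 CPM in WT placebo and 15.2, 29.3, 19, 25.1 and 15.6 CPM in SP MAT2Ai (log2 fold change -1.46 ± 0.22, adjusted p = 0.0174). SP placebo had 28.7, 20.5, 27.3, 35.5 and 100.2 CPM, of which replicate 5 lay above every WT placebo library. *Cyp2d9*, a male-biased cytochrome P450, fell from 308, 157, 178, 181 and 121 CPM to 37.2, 71.3, 64.6, 98.3 and 66.4 CPM (log2 fold change -1.48 ± 0.26, adjusted p = 0.0249), and SP placebo was at 125, 71.3, 101, 74.7 and 113 CPM. *Cyp2d9* belongs to a cluster of close relatives, so its counts cover uniquely aligned reads only. *Cyp27b1*, the enzyme that makes active vitamin D in the proximal tubule, was at 9.92, 11.6, 12.4, 4.81 and 6.23 CPM against 1.57, 1.73, 3.15, 4.86 and 3.79 CPM (log2 fold change -1.57 ± 0.33, adjusted p = 0.0397), where SP MAT2Ai replicate 4 overlapped with WT placebo replicate 4, and it was called in 2 of the 10 fits that left out 1 library. *Vdr*, the vitamin D receptor, named after its values were seen, rose from 192, 162, 159.8, 161 and 178 CPM to 219.7, 256, 207, 229 and 231 CPM without overlap (log2 fold change 0.42 ± 0.07, adjusted p = 0.0209). *Cyp1b1*, a cytochrome P450 of estrogen and retinoid metabolism, fell (log2 fold change -1.24 ± 0.25, adjusted p = 0.0394).

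*Hba-a2*, an alpha globin gene, fell from 7.77, 2.95, 1.65, 1.02 and 0.673 CPM to 0.324, 0.276, 0.083, 0.297 and 0.258 CPM (log2 fold change -3.48 ± 0.64, adjusted p = 0.0267). Without WT placebo replicate 1 its log2 fold change was -2.65, and it was called in 5 of the 10 fits that left out 1 library. It is near identical to its neighbor in the alpha globin cluster, so the authors' counting of unique alignments leaves its own level uncertain. Of 11 erythroid genes tested it was the one called, and the list summed to 516 to 891 CPM in WT placebo and to 416 to 863 CPM in SP MAT2Ai. *Ceacam2*, a cell adhesion protein, was at 6.82, 3.01, 6.67, 15 and 3.62 CPM against 0.957, 2.95, 1.13, 1.55 and 0.91 CPM (log2 fold change -2.22 ± 0.44, adjusted p = 0.0373), and the amino acid transporter gene *Slc7a12* at 7.18, 8.4, 6.12, 12.6 and 3.99 CPM against 1.64, 3.78, 1.64, 3.09 and 0.926 CPM (log2 fold change -1.78 ± 0.36, adjusted p = 0.0386). *Mir124-2hg*, the host transcript of a miR-124 gene, fell from 3.5, 1.01, 0.941, 1.52 and 2.91 CPM to 0.47, 0.0291, 0.149, 0.336 and 0.0607 CPM (log2 fold change -3.22 ± 0.59, adjusted p = 0.0262). *Cd38*, an enzyme that consumes NAD, fell in all 10 fits that left out 1 library, at 4.03, 6.06, 4.15, 4.36 and 4.27 CPM against 2.76, 1.76, 2.04, 2.39 and 2.09 CPM (log2 fold change -1.05 ± 0.15, adjusted p = 0.0147). *Adcy1*, a calcium-stimulated adenylyl cyclase, stood at 10.4, 12.8, 11.2, 14.2 and 10.9 CPM against 8.32, 6.52, 6.89, 7.11 and 5.87 CPM (log2 fold change -0.78 ± 0.11, adjusted p = 0.0147). *Pigz*, a mannosyltransferase of membrane anchor synthesis, also fell (log2 fold change -1.31 ± 0.19, adjusted p = 0.0147), as did the chemokine gene *Cxcl14* (log2 fold change -1.29 ± 0.27, adjusted p = 0.0426) and *Tril*, an accessory protein of Toll-like receptors (log2 fold change -1.28 ± 0.27, adjusted p = 0.0399).

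Endothelial genes were the list with the most members called lower. Of 17 markers, all were tested, 6 fell and all 17 had a negative log2 fold change, with a median of -0.65, where 0.64% of all tested genes were called lower and their median was 0.0017. DESeq2 called 12 of them, limma-voom 13, the fit over 20 libraries 0, and the fits that left out 1 library between 0 and 13. The markers summed to 272 to 503 CPM in WT placebo and 193 to 281 CPM in SP MAT2Ai, with WT placebo replicate 1 the lowest of its group. In bulk tissue, fewer cells of a type and less RNA per cell cannot be told apart. *Esam*, an adhesion molecule of endothelial tight junctions, stood at 10.4, 17.3, 15.6, 14.2 and 13.5 CPM against 7.77, 6.79, 8.35, 9.28 and 6.92 CPM (log2 fold change -0.86 ± 0.13, adjusted p = 0.0161). *Plvap*, the diaphragm protein of fenestrated capillaries, was at 35.7, 77.6, 58, 52.9 and 60.7 CPM against 35.3, 21.8, 27.4, 33.8 and 25.8 CPM (log2 fold change -0.98 ± 0.18, adjusted p = 0.0262), where 35.7 CPM in WT placebo replicate 1 lay just above 35.3 CPM in SP MAT2Ai replicate 1. *Flt1*, a receptor of vascular endothelial growth factor, was at 26.9, 43.8, 35.1, 30.9 and 37.9 CPM against 25.3, 18.5, 24, 23.7 and 21.1 CPM (log2 fold change -0.63 ± 0.12, adjusted p = 0.0313). *Pecam1*, the junctional protein CD31, fell (log2 fold change -0.63 ± 0.13, adjusted p = 0.0355). *Emcn*, a sialomucin of capillaries and veins (log2 fold change -0.86 ± 0.18, adjusted p = 0.0394), and *Cdh5*, the adhesion molecule of endothelial junctions (log2 fold change -0.65 ± 0.14, adjusted p = 0.0439), also fell, with overlapping groups. *Esam* was called in 9 of the 10 fits that left out 1 library, all but that without WT placebo replicate 3, and the other 5 genes in 3 each. In the groups outside the comparison the markers summed to 236 to 371 CPM in SP placebo and to 205 to 449 CPM in WT MAT2Ai.

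**Figure D3:**
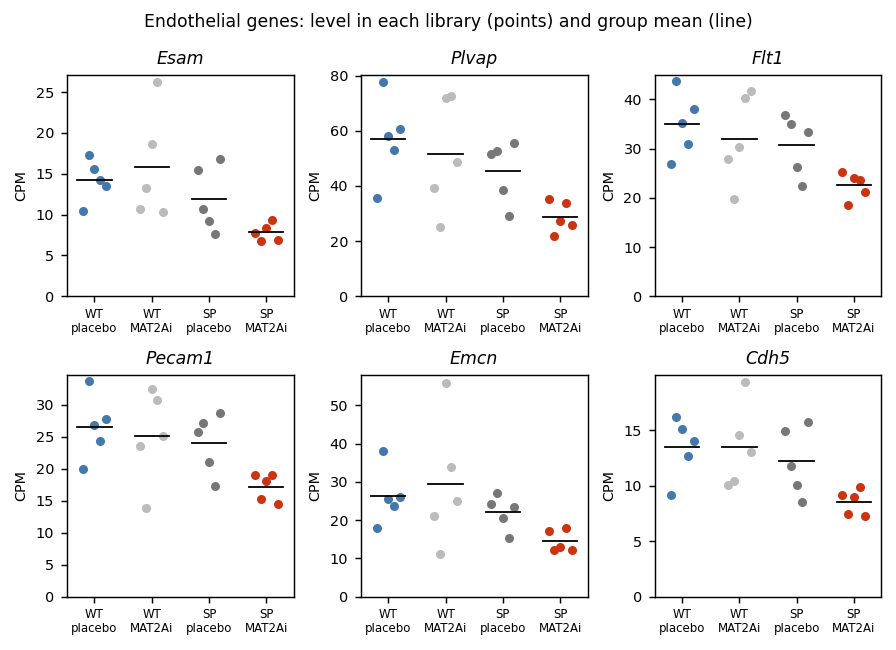
Level in CPM (vertical axis, from 0, a separate range per panel) of the 6 endothelial genes called lower, in each of the 20 libraries (points, in replicate order from left to right) by group, with the group mean as a line. The SP MAT2Ai libraries lie in a narrow low band, and WT placebo replicate 1 is the lowest of its group in each panel.

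Listed markers of macrophages, dendritic cells and lymphocytes were mostly lower in count without being called by the quasi-likelihood test. This does not cover genes outside these lists, of which *Fcgr3* and *Cd37*, named after their values were seen, were called lower. Of 22 macrophage and dendritic cell markers, 20 had a negative fold change with a median of -0.55, 14 had an unadjusted p under 0.05, and DESeq2 called 5 and limma-voom 4. Their sum was 301 to 399 CPM in WT placebo and 154 to 322 CPM in SP MAT2Ai, and none was at 0 in either group. *C1qc*, a complement subunit made by resident macrophages, stood at 5, 6.82, 6, 5.26 and 5.24 CPM against 3.54, 3.9, 2.09, 4.41 and 2.35 CPM (log2 fold change -0.80 ± 0.19, adjusted p = 0.0591). All 18 lymphocyte markers tested were negative with a median of -1.09, 13 of them at an unadjusted p under 0.05, and DESeq2 called 4 and limma-voom 2. The lymphocyte markers summed to 249 to 576 CPM in WT placebo and 105 to 367 CPM in SP MAT2Ai. *Ighm*, the heavy chain of immunoglobulin M, was at 10.6, 7.5, 3.08, 3.77 and 4.88 CPM against 3.05, 2.69, 0.946, 2.96 and 1.47 CPM (log2 fold change -1.42 ± 0.37, adjusted p = 0.0774), and the pan-leukocyte gene *Ptprc* at 6.19, 8.29, 6.51, 5.76 and 8.11 CPM against 6.1, 5.28, 3.67, 5.65 and 3.57 CPM (log2 fold change -0.52 ± 0.17, adjusted p = 0.13). The part of these cell types in the other differences was not tested.

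Genes of fibrosis and matrix had mostly negative fold changes as well. Of 34 tested, 4 were called lower, 31 were negative, and the median was -0.53, again beside 0.64% called lower and a median of 0.0017 over all tested genes. DESeq2 called 13 of them, limma-voom 10, the fit over 20 libraries 0, and the fits that left out 1 library between 0 and 9. *Tgfb1*, the cytokine that drives matrix synthesis, stood at 7.28, 11.5, 10.2, 8.73 and 9.14 CPM against 6.68, 6.33, 6.14, 7.24 and 5.49 CPM (log2 fold change -0.56 ± 0.12, adjusted p = 0.0439). *Dcn*, a matrix proteoglycan of fibroblasts, was at 10.1, 12.5, 10.6, 14.6 and 9 CPM against 6, 7.48, 5.15, 8.09 and 4.72 CPM (log2 fold change -0.85 ± 0.16, adjusted p = 0.0323). *Tagln*, a marker of smooth muscle and myofibroblasts, fell (log2 fold change -0.66 ± 0.13, adjusted p = 0.0328), as did *Timp2*, an inhibitor of matrix metalloproteinases (log2 fold change -0.58 ± 0.11, adjusted p = 0.0279). The collagen genes *Col1a1* (log2 fold change -0.42 ± 0.37, adjusted p = 0.607) and *Col3a1* (log2 fold change -0.43 ± 0.34, adjusted p = 0.547), *Fn1*, which encodes fibronectin (log2 fold change -0.29 ± 0.21, adjusted p = 0.515), and *Acta2*, which encodes smooth muscle actin (log2 fold change -0.45 ± 0.14, adjusted p = 0.115), did not pass the threshold. The 5 SP MAT2Ai values of *Col1a1* were 5.06, 2.82, 1.68, 7.28 and 1.82 CPM, against 3.32, 7.62, 4.25, 5.29 and 4.46 CPM in WT placebo. Of them, 2.82, 1.68 and 1.82 CPM lay below every WT placebo value, and 5.06 and 7.28 CPM lay within the WT placebo range.

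**Figure D4:**
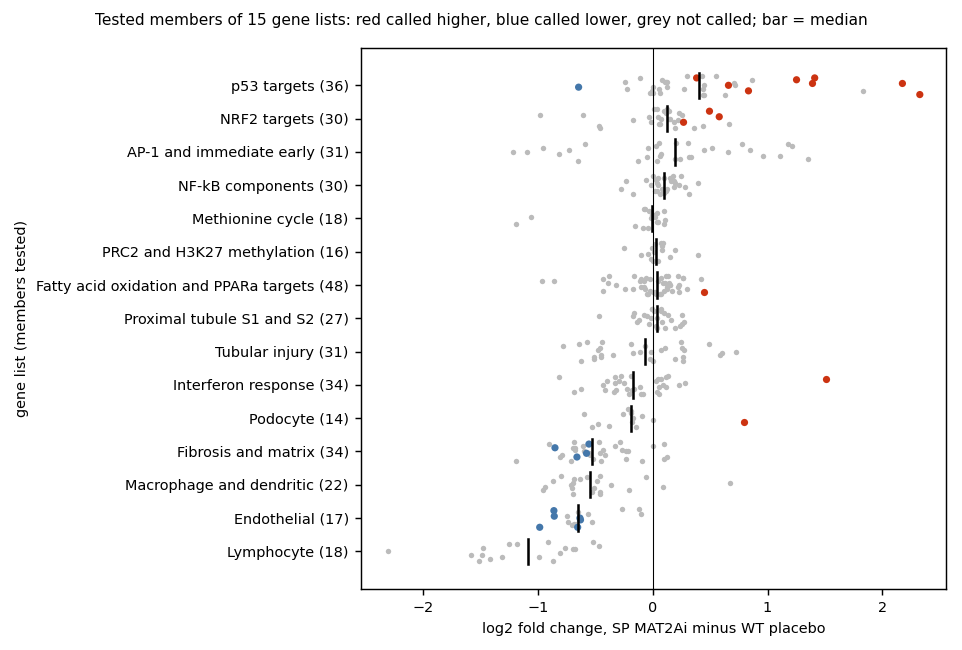
Log2 fold change of SP MAT2Ai against WT placebo (horizontal axis) of the tested members of 15 gene lists (rows, with the number tested), with members called higher in red, called lower in blue and not called in grey, and the list median as a bar. The p53 list has 8 members called higher and a median of 0.41, and the endothelial list has 6 called lower and a median of -0.65.

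Markers of the proximal tubule, where SGLT2 acts, were not called. None of the 27 genes of segments S1 and S2 or the 20 genes of S3 was called by the quasi-likelihood test, with medians of 0.041 and 0.042. At an unadjusted p under 0.05 there were 5 in each list, and DESeq2 called 2 and 0 and limma-voom 1 and 0. Of the 14 glucose carriers, 3 were positive and 11 negative with a median of -0.17. *Slc5a2* was called lower and *Slc2a9* higher, beside 0.64% called lower and 0.452% called higher over all tested genes. *Slc2a9*, a urate and glucose transporter, rose from 17.8, 16.6, 16.7, 16.4 and 16.2 CPM to 21.4, 26.2, 24.7, 17.9 and 21 CPM (log2 fold change 0.41 ± 0.09, adjusted p = 0.0499), close to the threshold. It was called in 2 of the 10 fits that left out 1 library and not in the fit over 20 libraries. *Slc5a1*, which encodes SGLT1, the cotransporter of the later proximal tubule, was at 71, 76.3, 74.9, 76.4 and 72.4 CPM against 62.1, 82.6, 67.5, 75.6 and 66.9 CPM (log2 fold change -0.06 ± 0.07, adjusted p = 0.699). *Slc5a3*, the myo-inositol cotransporter, fell from 52.5, 45.9, 77.5, 81.2 and 66.8 CPM to 40.4, 36.7, 42.9, 42.6 and 39.4 CPM (log2 fold change -0.68 ± 0.13, adjusted p = 0.0344) and lay between 36.7 and 42.9 CPM in all 5 SP MAT2Ai libraries.

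*Mat2a*, the gene of the enzyme that was inhibited, stood at 453, 346, 366, 315 and 316 CPM in WT placebo and 361, 367, 316, 487 and 404 CPM in SP MAT2Ai (log2 fold change 0.11 ± 0.12, adjusted p = 0.701), with overlapping groups. Of 18 genes of the methionine cycle tested, none was called, 8 were positive and 10 negative, and the median was -0.0095. At an unadjusted p under 0.05 there was 1, and DESeq2 called 1 and limma-voom 0. Of 16 genes of Polycomb repressive complex 2 and H3K27 methylation, none was called by any of these tests and none had an unadjusted p under 0.05, with a median of 0.03.

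NRF2 is a transcription factor that raises antioxidant and detoxifying enzymes. Of 30 of its targets tested, 3 rose, 23 were positive and the median was 0.12, where 0.452% of all tested genes were called higher. The fit over 20 libraries called 0 of them, and the fits that left out 1 library between 0 and 5. *Ephx1*, a microsomal epoxide hydrolase, stood at 24.1, 26.4, 22.5, 25.9 and 21.4 CPM against 34.5, 38, 35, 34 and 27.9 CPM (log2 fold change 0.49 ± 0.08, adjusted p = 0.0235), *Gstm1*, a glutathione transferase, at 291, 188, 294, 289 and 214 CPM against 433, 389.6, 362, 362 and 360.1 CPM (log2 fold change 0.58 ± 0.12, adjusted p = 0.0394), and *Pgd* of the pentose phosphate pathway at 57.6, 54.6, 57.3, 54.8 and 56.9 CPM against 66.5, 71.2, 69.6, 62.3 and 69.3 CPM (log2 fold change 0.27 ± 0.05, adjusted p = 0.0258). *Pgd* was called in 4 and *Gstm1* in 3 of the 10 fits that left out 1 library, against 6 for *Ephx1*. *Gstm1* belongs to a family of similar genes. Of 48 genes of fatty acid oxidation and PPARa targets, *Ehhadh*, a peroxisomal enzyme, rose from 320.1, 269, 376, 335 and 328 CPM to 471, 413, 492, 375 and 472 CPM (log2 fold change 0.45 ± 0.09, adjusted p = 0.0394), and the list median was 0.039. Named after their values were seen, *Lpl*, the lipase of triglyceride-rich lipoproteins (log2 fold change 0.51 ± 0.10, adjusted p = 0.0389), *Adh1*, an alcohol dehydrogenase (log2 fold change 0.56 ± 0.12, adjusted p = 0.0397), *Keg1*, a kidney-expressed glycine acyltransferase relative (log2 fold change 0.51 ± 0.10, adjusted p = 0.0384), and *Kyat1*, a kynurenine aminotransferase (log2 fold change 0.65 ± 0.10, adjusted p = 0.0177), rose without overlap. *Kyat1* was called in 8 of the 10 fits that left out 1 library and in the fit over 20 libraries, which called none of the other three. *Lpl* and *Keg1* were called in 4 each and *Adh1* in 3 of the 10. Fatty acid synthesis, sterol synthesis, glycolysis, gluconeogenesis and the 13 mitochondrially encoded mRNAs had no called member, and their medians lay between -0.099 and 0.06.

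Of 20 circadian clock genes, *Nr1d1* and *Bhlhe41* fell. *Nr1d1*, the repressor REV-ERB alpha, stood at 30.02, 44.5, 56.4, 54.3 and 51.4 CPM against 30.1, 14.2, 21.6, 25.6 and 19.97 CPM (log2 fold change -1.09 ± 0.19, adjusted p = 0.0255), with WT placebo replicate 1 level with SP MAT2Ai replicate 1. *Bhlhe41*, a repressor of the clock, also fell (log2 fold change -0.57 ± 0.12, adjusted p = 0.0492). The time of day at which the kidneys were taken is not given in the sources used here, and its part was not tested. *Ccnd1*, the G1 cyclin D1 that tubules express, fell with overlapping groups (log2 fold change -0.68 ± 0.14, adjusted p = 0.0397) as the one call among 31 proliferation genes. *Trib3*, a pseudokinase induced by stress of the endoplasmic reticulum, fell (log2 fold change -1.08 ± 0.23, adjusted p = 0.0397), at means of 0.427 CPM in SP MAT2Ai and 0.906 CPM in WT placebo. It was the one call among 28 genes of the unfolded protein and integrated stress responses, of which 23 were negative with a median of -0.15. Over all tested genes, 0.64% were called lower. *Bhlhe41*, *Ccnd1* and *Trib3* were each called in 2 of the 10 fits that left out 1 library. The fit over 20 libraries called none of them.

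The inflammatory genes on which the study turned were not called. The study rests its claims about them on other contrasts, WT against SP on HFD and SP with inhibitor against SP with placebo. It used quantitative PCR and staining of the NF-kB subunit p65 as well. It describes SP mice given the inhibitor as similar in injury to WT mice on HFD. The absent calls here do not bear on those contrasts. *Fos*, a subunit of the AP-1 transcription factor, ranged widely, with 0.456, 4.66, 1.98, 8.66 and 3.88 CPM in WT placebo and 3.65, 12.3, 12.4, 2.02 and 20.1 CPM in SP MAT2Ai (log2 fold change 1.35 ± 0.64, adjusted p = 0.295). Its partners *Jun* (log2 fold change 0.78 ± 0.30, adjusted p = 0.196) and *Junb* (log2 fold change 0.65 ± 0.32, adjusted p = 0.31) showed the same 3 SP MAT2Ai libraries, replicates 2, 3 and 5, above every WT placebo library, while replicates 1 and 4 lay within the WT placebo range. In *Fos* these 3 libraries also lay above every WT placebo library. Of 31 AP-1 and immediate early genes, none was called by the quasi-likelihood test, 10 had an unadjusted p under 0.05, and DESeq2 called 6 and limma-voom 2, with 21 positive and a median of 0.20. Of 30 components of the NF-kB pathway, 25 were positive with a median of 0.094, 8 had an unadjusted p under 0.05, and DESeq2 and limma-voom called 0. *Rela*, which encodes the p65 subunit, was at 28.5, 28.3, 29.9, 29 and 28.6 CPM against 29.8, 35.8, 33, 32.6 and 29 CPM (log2 fold change 0.15 ± 0.06, adjusted p = 0.213), and *Nfkb1* at 18.7, 20.4, 16.7, 17.9 and 18.3 CPM against 17.3, 19.99, 17.6, 17.8 and 15.6 CPM (log2 fold change -0.06 ± 0.07, adjusted p = 0.736). Of 17 cytokine and adhesion targets of NF-kB, 6 were positive and 11 negative with a median of -0.34, none was called, 4 had an unadjusted p under 0.05, and DESeq2 called 1 and limma-voom 0. *Icam1*, a leukocyte adhesion molecule, was at 21.3, 25.5, 18.1, 16 and 18.7 CPM against 14.4, 44.6, 38.9, 25.3 and 18.5 CPM (log2 fold change 0.51 ± 0.26, adjusted p = 0.332), *Ccl2*, a chemokine for monocytes, at 1.25, 1.16, 0.746, 0.901 and 1.02 CPM against 0.47, 0.509, 0.349, 1.58 and 0.395 CPM (log2 fold change -0.60 ± 0.39, adjusted p = 0.444), and *Cxcl10*, an interferon-induced chemokine, at 2.03, 1.83, 1.61, 2.57 and 1.83 CPM against 3.03, 3.83, 2.12, 5.31 and 2.87 CPM (log2 fold change 0.80 ± 0.22, adjusted p = 0.0934). *Tnf* and *Il6* were under the filter, at no more than 0.15 CPM in any of the 10 libraries.

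No listed injury gene of the tubule was called. In the study, the inhibitor removed the differences in kidney function and histology between SP and WT mice on HFD. *Havcr1*, which encodes kidney injury molecule 1, stood at 34.2, 29.1, 27.4, 51.1 and 27.3 CPM in WT placebo and 24.3, 65.6, 23.7, 28.8 and 18.3 CPM in SP MAT2Ai (log2 fold change -0.07 ± 0.30, adjusted p = 0.936), with SP MAT2Ai replicate 2 the highest of the 10. Its fold change was between -0.50 and 0.13 when 1 library was left out and turned positive in 4 of these 10 fits. Of 31 tubular injury genes, none was called, 12 had an unadjusted p under 0.05, DESeq2 called 7 and limma-voom 5, and the median was -0.070. The groups did not overlap for 1 of them, *S100a6*, a calcium-binding protein, named after its values were seen (log2 fold change -0.78 ± 0.21, adjusted p = 0.0828). *Umod*, the most abundant urinary protein of the thick ascending limb, was at 1826, 1627, 1736, 2226 and 1584 CPM against 1157, 1663, 1604, 1368 and 1200.3 CPM (log2 fold change -0.36 ± 0.12, adjusted p = 0.136), and *Slc12a1*, the cotransporter NKCC2 of the same segment, at 396, 323, 362, 463 and 323 CPM against 271, 259.9, 308, 306 and 272 CPM without overlap (log2 fold change -0.40 ± 0.10, adjusted p = 0.0607). Of the 37 genes that the study names for these processes, 35 were tested and 2, *Slc5a2* and *Tagln*, were called. The other 33 had log2 fold changes between -0.60 and 1.35 and adjusted p of at least 0.0607, 11 had an unadjusted p under 0.05, and DESeq2 called 4 and limma-voom 2.

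Genes near *Slc5a2* were also examined on their own, because nearby genes can be inherited together with the mutation. How far such a stretch reaches in these mice was not tested. The start of a gene is here its lower coordinate on the chromosome, whichever its strand. Of 198 tested genes that start within 10 Mb of *Slc5a2* on chromosome 7, 3 were higher and 4 lower (3.54%), or 3.05% without *Slc5a2* itself, against 1.51% of the 930 genes farther away on chromosome 7 and 1.09% of all genes. *Pycard*, which encodes the inflammasome adaptor ASC and starts 276 kb before *Slc5a2*, stood at 1.9, 2.92, 1.36, 1.7 and 1.14 CPM against 3.68, 5.14, 3.83, 4.42 and 3.96 CPM (log2 fold change 1.22 ± 0.22, adjusted p = 0.0255). SP placebo libraries had 2.49, 3.41, 4.13, 5.18 and 3.57 CPM of *Pycard* and WT MAT2Ai libraries 1.75, 2.3, 2.08, 1.76 and 2.33 CPM. In the fit over 20 libraries its step from WT placebo was 1.06 ± 0.22 (adjusted p = 0.399) to SP placebo and 0.19 ± 0.22 (adjusted p = 0.704) to WT MAT2Ai, and 1.25 ± 0.23 (adjusted p = 0.126) to SP placebo without replicates 1 and 2. *Fam53b*, *Mgmt* and *Chst15*, a sulfotransferase of chondroitin sulfate, start 4446, 8629 and 3970 kb beyond *Slc5a2*, with fold changes of 0.26, 0.66 and -0.82 on the log2 scale. *D7Ertd443e*, at 6000 kb, and *Itpripl2*, at -9781 kb on the other side, fell by 1.75 and 0.75 on the same scale. *Pycard* and *Itpripl2* were the 2 neighbors called in the fit over 20 libraries, and without WT placebo replicate 3, WT placebo replicate 4 or SP MAT2Ai replicate 5, 1 gene of the region was called.

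**Figure D5:**
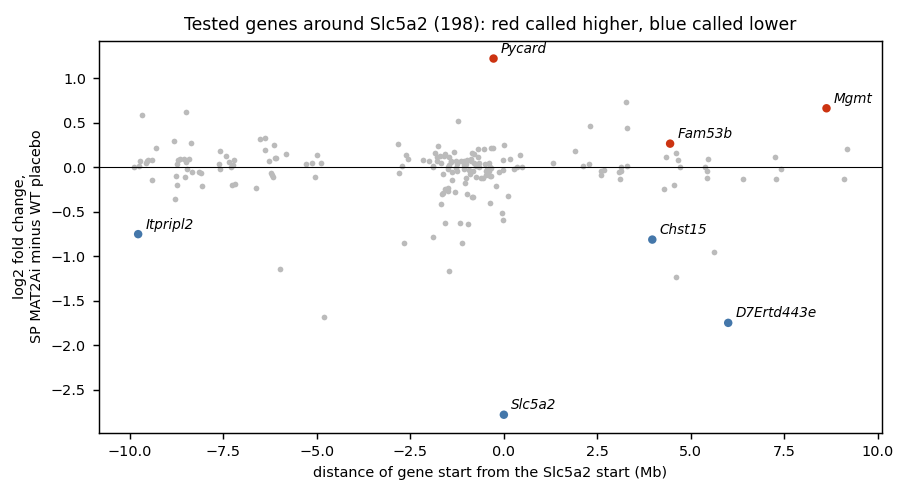
Log2 fold change of SP MAT2Ai against WT placebo (vertical axis) of the 198 tested genes around *Slc5a2* by the distance of their start from its start in Mb (horizontal axis), with genes called higher in red, called lower in blue and not called in grey. The start is the lower coordinate of each gene, whichever its strand. *Slc5a2* is the lowest point at -2.78, and *Pycard*, 0.276 Mb away, is the highest at 1.22.

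Of the 35 gene lists, 14 had a called member and 21 had none. The lists held 728 distinct tested genes, of which 36 were called, beside 169 of all 15471 genes tested (1.09%). In the 21 lists with none, 399 distinct genes were tested, 123 had an unadjusted p under 0.05, and DESeq2 called 43 and limma-voom 23. Over all 15471 genes these counts were 2736, 891 and 550, so a list without a call is not shown to be unchanged. Besides those given above, these were thick ascending limb and distal tubule, collecting duct, neutrophil, adipocyte, ketone body and renin-angiotensin genes, with medians between -0.16 and 0.24.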

How the data were processed

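The authors deposited raw counts of reads per gene for 20 kidney RNA libraries. They selected poly(A) RNA, made directional libraries, aligned reads with STAR to mm10, and counted uniquely aligned reads with htseq-count on Ensembl release 78. The strand setting of the counting was not given in the sources used here, so overlapping antisense genes could not be set apart. Symbols of 42546 of 43430 genes came from GENCODE M21, and 5 summary lines per file were left out.

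The main fit used the 10 libraries compared, filterByExpr, TMM factors over all 20 libraries, and glmQLFit and glmQLFTest of edgeR 4.0.16 (R 4.3.3), without covariates. P values were adjusted by Benjamini-Hochberg over all tested genes, and the threshold was 0.05. The SE is the log2 fold change divided by the square root of F. The fit was tested on simulated data. DESeq2 1.42.0, limma 3.58.1 (voom with sample weights), a likelihood ratio test, other filters and factors, each library left out and a fit over all 20 libraries were alternatives. Levels are CPM on these factors. Library measures were compared by exact permutation tests.

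Genes named are those the study names, the 12 largest rises, 12 largest falls and 8 smallest p among called genes whose average log2 CPM is 0 or higher, and up to 4 genes of smallest p per list. A few of them were left out and are not reported here. Called list members beyond these, and genes said to be so, were chosen after their values were seen. Members and lists were chosen with earlier results of these data known.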

Additional observations from a re-analysis of the deposited data

Results flagged for a closer look

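Of 214 groups of 5 libraries, for 107 genes in WT placebo and SP MAT2Ai, 12 (5.61%) held 1 library whose gap to the next was over 0.71 of the range of its group, and about 1 in 20 groups is flagged by chance. In WT placebo, replicate 1 stood above the others at 17.8 CPM for *Slc2a9*. Replicate 2 of the same group stood above at 8.46 CPM for *Mgmt* and 6.06 CPM for *Cd38*, and replicate 5 at 49.9 CPM for *Mfsd2a*. In SP MAT2Ai, replicate 1 stood above at 900 CPM for *Ly6a*, 21.1 CPM for *Ddc*, 0.292 CPM for *Cd3d* and 0.0162 CPM for *Il6*, where the other 4 libraries had no count. Replicate 2 stood above at 65.6 CPM for *Havcr1*, and replicate 4 at 1.58 CPM for *Ccl2* and 1400 CPM for *Malat1*. Replicate 3 stood below the others at 0.083 CPM for *Hba-a2*. Of these genes, *Slc2a9*, *Mgmt*, *Cd38*, *Mfsd2a*, *Ly6a*, *Ddc* and *Hba-a2* were called between the groups.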

How the results depend on the processing

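The number of genes called depended strongly on the fit, against 169 (70 higher, 99 lower) as reported. It was 19 (11 and 8) over all 20 libraries, 891 (352 and 539) with DESeq2, 746 (271 and 475) by likelihood ratio, 550 (193 and 357) with limma-voom and 329 (124 and 205) without a filter on low counts. It was 222 in a fit over the groups less 5 libraries that stand apart, with 119 higher, an alternative chosen after seeing the data. Called list members, 36 as reported, numbered 7, 119, 117, 85 and 70 in the first 5 of these fits, and called genes near *Slc5a2*, 7 as reported, numbered 3, 21, 18 and 13 in the first 4 and 4 with a filter of 1 CPM in 5 libraries. Replicate numbers did not pair the samples: the correlation of same-numbered libraries was -0.018 on average, over 0.1 in 1 of 5 pairs, and 1 of 5 libraries matched its own number best. With the replicate number as a block, 47 genes (22 and 25), 18 list members and 2 genes near *Slc5a2* were called. Leaving out 1 library gave 22 to 397 genes, with 14 to 161 higher and 7 to 254 lower, 5 to 69 list members and 1 to 9 genes near *Slc5a2*. The difference in gene counts per library ranged from 4903156 to 8973528 and passed the threshold without SP MAT2Ai replicate 3. The difference in genes with a count ranged from -127.45 to 132.45, in percent mitochondrial from -0.3825 to 0.7275 and in the percent of the 10 most counted genes from -0.220 to 0.841. *Havcr1* ranged from -0.50 to 0.13. The change of *Slc5a2* was called in every alternative run. Other scaling factors and the robust fit moved the total by less than 1.5 times. The cause of these differences was not tested.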
